A study of Canis lupus familiaris with 6 samples.

Results

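CCL20 and 9 other inflammatory cytokine genes (CCL2, CCL5, CXCL8, CXCL10, CXCL12, CSF2, IL1A, IL1B and IL23A) were examined in RasV12-transformed dog epithelial cells that were cultured alone or mixed with normal cells. The genes were taken by name: every non-control probe annotated with one of these 10 gene symbols was used, which gave 20 of the 43603 probes on the array and 10 of its 34378 names. The cells were of the MDCK-pTR GFP-RasV12 line, made from MDCK (Madin-Darby canine kidney), a widely used dog epithelial cell line, and they express GFP-tagged RasV12, an activated Ras oncoprotein, when tetracycline is present. In one group (alone, 3 samples) these cells made up the whole culture, and in the other (mixed, 3 samples) they were cultured with normal MDCK cells. In both groups tetracycline was given for 24 h on collagen-coated dishes, and GFP-positive cells were then sorted and their RNA hybridised to 1-colour Agilent canine arrays. Both groups were therefore sorted for GFP, the tag of RasV12, and no tetracycline-free or RasV12-free sample was analysed here. The study's methods give no purity of the sort. Normal cells left in the mixed samples cannot be told apart from a change within RasV12 cells.

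The labels differ from one another in 2 places. The source label of mixed replicate 2 gives 100 normal cells to 1 RasV12 cell, whereas those of the other mixed samples, the culture text and the study's methods give 10 to 1. The extraction text names cells that also carry a truncated β-catenin, whereas the titles, the source labels and the methods give RasV12 cells without it. The labels do not say whether replicates came from separate cultures, so p-values measure the spread between these samples, which may be technical. Each slide carried arrays of 1 group, so an effect of the slide cannot be told apart from one of the culture.

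Inflammatory cytokines are small secreted proteins through which cells alert and recruit other cells. Chemokines such as CCL20, CCL2, CCL5, CXCL8, CXCL10 and CXCL12 attract leukocytes through G protein-coupled receptors, CSF2 (GM-CSF) drives the growth and activation of myeloid cells, and IL-1α, IL-1β and IL-23 are interleukins that start or sustain inflammation. Epithelial cells can secrete many of them, and oncogenic Ras and NF-κB are both known to raise several.

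The probes that carry the results are shown here, each 60 bases long, as the array's design gives them, 5′ to 3′, with positions in canFam3. CCL20 is the member that was called different, CSF2 a member with 2 probes that gave like differences, IL23A a member whose groups did not overlap, CXCL8 the member at the edge of detection, and CXCL10 a gene whose probes disagreed. Capitals in both CXCL10 probes mark the 54 bases that they share. The files do not say in which exon a probe lies.
CCL20 (probe 20105, chr25:40508815-40508874, plus strand): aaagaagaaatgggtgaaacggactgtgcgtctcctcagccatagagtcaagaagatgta
CSF2 (probe 50036, chr11:20346539-20346598, plus strand): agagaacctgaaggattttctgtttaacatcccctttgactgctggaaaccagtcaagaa
IL23A (probe 25810, chr10:639976-640035, plus strand): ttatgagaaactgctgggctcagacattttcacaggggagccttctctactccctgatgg
CXCL8 (probe 54906, chr13:62436398-62436736, plus strand): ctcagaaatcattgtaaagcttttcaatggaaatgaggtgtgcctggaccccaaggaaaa
CXCL10 (probe 20166, chr32:598422-598938, minus strand): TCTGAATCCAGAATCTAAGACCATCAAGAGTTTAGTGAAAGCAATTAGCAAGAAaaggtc
CXCL10 (probe 58961, chr32:598885-598944, minus strand): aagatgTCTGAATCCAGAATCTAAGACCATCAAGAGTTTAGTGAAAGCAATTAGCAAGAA
The CXCL8 probe covers 339 bases of the genome and the first CXCL10 probe 517, more than their own length, so each joins sequence that is apart in the genome.

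Of the 10 cytokine genes, 4 could be tested and 1 was called different between the cultures, where 12.7% of all tested names were called. The called gene was CCL20, higher in mixed culture, and it kept the call in 3 of 14 processing alternatives. CSF2 values lay below those of all alone samples in mixed replicates 2 and 3 but not in mixed replicate 1, and the difference missed the threshold. CCL2 was well above background in mixed replicates 2 and 3 and in no other sample. CCL5 and IL23A were measured on every array and were not called. CXCL8 and CXCL10 were at the edge of detection, and CXCL12, IL1A and IL1B were not well above background on any array. Intensities are given scaled, as the processed intensity of a probe divided by the 75th percentile of its array and multiplied by 639, the geometric mean of the 6 percentiles. The lowest scaled intensity that the scanner software marked as well above background ranged over the 6 arrays from 9.07 to 14.7. Values of different probes are not comparable as amounts of RNA. In bulk RNA of this kind, fewer cells making a transcript and less transcript per cell cannot be told apart.

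**Figure D1:**
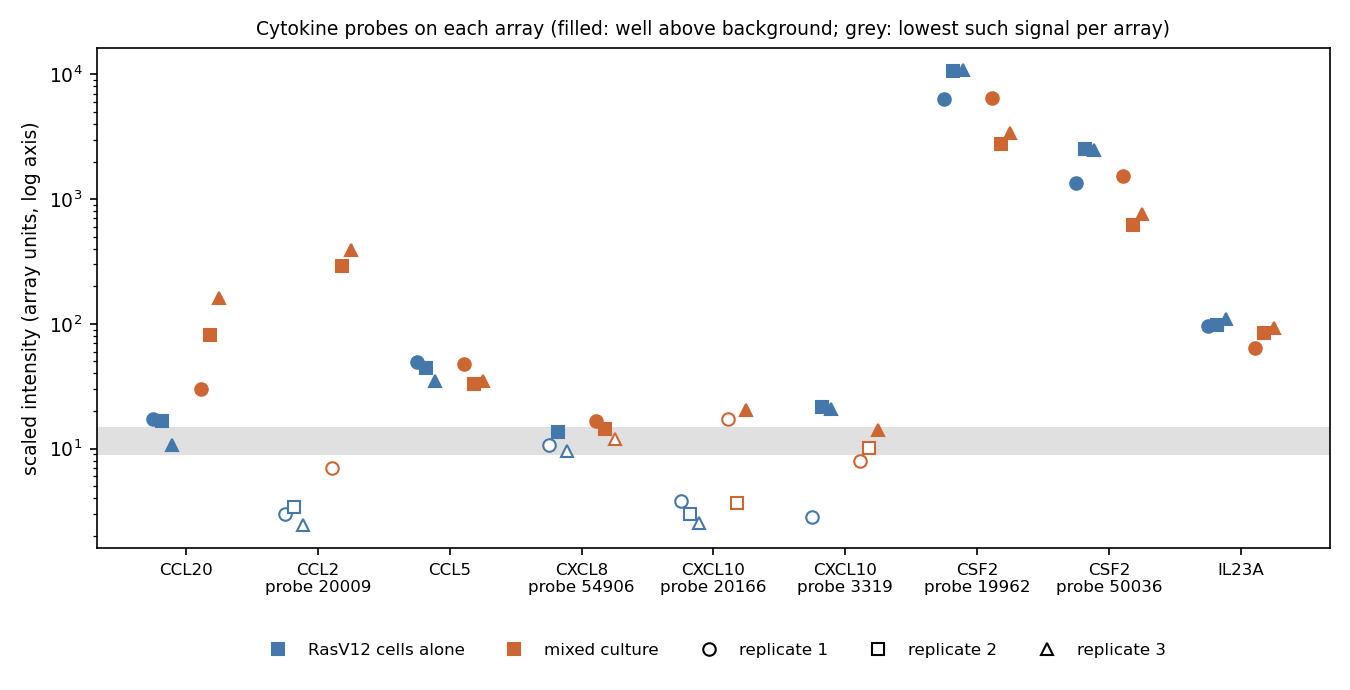
Scaled intensity (log axis) of each cytokine probe detected well above background on 1 array or more, by array, for RasV12 cells alone (blue) and in mixed culture (orange), with replicate numbers as marker shapes. Filled markers are well above background, open ones are not, and the grey band spans 9.07 to 14.7, the lowest scaled intensities marked as well above background on the 6 arrays. CCL20 is higher on all 3 mixed arrays, CCL2 is filled on mixed replicates 2 and 3 only, and replicate 1 of both groups meets at the CSF2 probes.

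Differences were tested with limma across 26535 probes, each of them well above background in every sample of the alone group, of the mixed group or of both, and p-values were adjusted by Benjamini-Hochberg. At an adjusted p under 0.05, 2978 probes, 11.2%, were called in either direction, and 12.7% of the 19629 names tested had at least 1 called probe. Of the cytokines, 5 probes of 4 genes could be tested (CCL20, CCL5, CSF2 and IL23A), and 1 gene was called (2 had an unadjusted p under 0.05, CCL20 and CSF2). The median log2 difference of these 4 genes, mixed minus alone, was -0.25, against -0.0037 for every probe tested. Alone and mixed values did not overlap at 2 of the 5 probes (CCL20 and IL23A), and the share over the whole test was 37.2%.

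CCL20 (probe 20105) is the ligand of the receptor CCR6 and attracts immature dendritic cells and T cells of the Th17 type. In RasV12 cells alone its scaled intensity was 17.3, 16.5 and 10.7 in replicates 1, 2 and 3. In mixed culture it was 30.3, 82.0 and 161 in the same order. Every mixed sample lay above every alone sample, and all 6 were well above background, although the alone samples were close to the lowest signals so marked. The log2 difference was 2.34 (SE 0.57, 95% interval 0.97 to 3.72), a 5.07-fold rise (adjusted p = 0.0485, limma, n = 3 per group). Among all 1459 probes called higher, the CCL20 difference was the number 30 in size. Among the 1364 of them that were well above background on all 6 arrays, it was the number 10.

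The rise of CCL20 was uneven between samples. Between samples with the same replicate number it was 1.75-fold in replicate 1, 4.96-fold in replicate 2 and 15.0-fold in replicate 3. The SD of its log2 values was 1.21 in mixed culture and 0.38 in RasV12 cells alone. Only 24 of the 26535 tested probes, 0.0904% and CCL20 included, had an SD as large in mixed culture, where the median was 0.10. In RasV12 cells alone, 8.72% of tested probes had an SD at least that of CCL20 there, and the median was 0.13. With normexp background correction the difference was 0.97 (SE 0.30, adjusted p = 0.0688, limma), and the call was lost. With the replicate number as a block the difference stayed at 2.34 and the adjusted p was 0.0679 (limma), so the call was lost. The call was also lost when any 1 array other than mixed replicate 1 was left out, with adjusted p of 0.0573 to 0.157 and differences of 1.78 to 2.47. Without mixed replicate 1, the sample nearest to the alone group, the difference was 2.98 and the adjusted p 0.0208. Without mixed replicate 2, whose label gives the other cell ratio, it was 2.26 (adjusted p = 0.147).

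**Figure D2:**
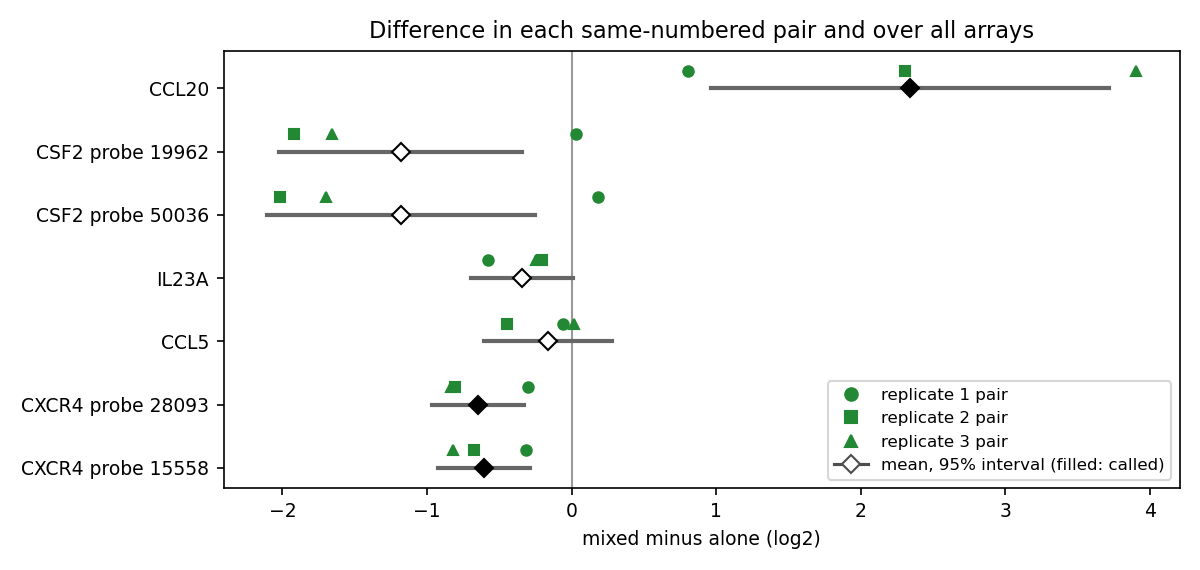
Log2 difference, mixed minus alone, of the tested cytokine probes and of the 2 probes of the receptor CXCR4. Green markers are the samples with the same replicate number, diamonds the mean over all arrays (filled where called) and bars its 95% interval. For CCL20 the pairs spread from 0.81 to 3.91, and for CSF2 the replicate 1 pair lies at 0.03 and 0.18 while the other pairs lie between -1.66 and -2.02.

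CCL2 (MCP-1) attracts monocytes through the receptor CCR2. Its probe 20009 (chr9:39008191-39008250, minus strand) had scaled intensities of 2.97, 3.43 and 2.42 in RasV12 cells alone, and of 7.02, 288 and 389 in mixed replicates 1, 2 and 3. The signal was thus well above background in mixed replicates 2 and 3, and in neither mixed replicate 1 nor any alone sample. In the alone samples, and in mixed replicate 1, the values give only an upper limit, which was 9.07 to 13.3 over the alone arrays, and no fold change between the groups is given. The probe was not tested in the comparison of all 6 arrays, because only 2 of the 3 mixed arrays measured it. An exact permutation test of its values gave p = 0.1 (two-sided), as it did at the CCL20 and IL23A probes. That is the smallest that 3 against 3 allows, so the test could not pass 0.05. It also used values that are only upper limits. Over the array, 68 probes, 0.156%, were well above background in mixed replicates 2 and 3 and nowhere else. SAA1, which encodes the acute-phase protein serum amyloid A and was picked out after its values were seen, was among them, at scaled intensities of 146 and 135 in mixed replicates 2 and 3 and of 3.07 to 4.72 in the other samples.

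The other CCL2 probe (probe 14224, chr9:39009060-39009866, plus strand) was not well above background on any array. It is designed from an expressed sequence tag and lies on the opposite strand to probe 20009, so the probes do not read the same strand.

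CCL5 (RANTES) attracts T cells and monocytes. Its probe (probe 19736, chr9:37823778-37823837, plus strand) had scaled intensities of 49.4, 44.6 and 34.6 in RasV12 cells alone and 47.4, 32.7 and 35.0 in mixed culture. The groups overlapped, and the log2 difference was -0.16 (SE 0.19, 95% interval -0.60 to 0.28, adjusted p = 0.587, limma). The interval spans 0, and a rise as large as that of CCL20 lies outside it.

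CXCL8 (interleukin-8) attracts neutrophils and is often made by epithelial cells. Of its 4 probes, 3 were not well above background on any array, with scaled intensities of 2.06 to 3.85. The fourth (probe 54906), shown above, was at 10.8, 13.6 and 9.60 in RasV12 cells alone and at 16.7, 14.5 and 11.9 in mixed culture. It was well above background in alone replicate 2 and mixed replicates 1 and 2, the groups overlapped, and no fold change is given.

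CXCL10, an interferon-inducible ligand of CXCR3, was measured by 3 probes that disagreed. Probe 20166 had scaled intensities of 3.77, 3.0 and 2.54 in RasV12 cells alone and of 17.4, 3.68 and 20.4 in mixed culture, and only mixed replicate 3 was well above background. No fold change is given for it. Probe 58961, with which it shares the 54 capital bases above, was not well above background on any array, although its value in mixed replicate 3 was 14.1 against 2.39 to 6.89 elsewhere. Probe 3319 (chr32:598275-598334) had 2.81, 21.7 and 20.6 in RasV12 cells alone and 7.89, 10.0 and 14.2 in mixed culture, and was well above background in alone replicates 2 and 3 and mixed replicate 3. This probe lies on the plus strand, opposite to the other CXCL10 probes, and comes from an expressed sequence tag. It was not tested over all 6 arrays. None of the 3 gives a level that was measured in all samples of a group.

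CXCL12 (SDF-1) is the ligand of CXCR4. Neither of its probes (probe 2202, chr28:2899636-2899695, and probe 30500, chr28:2898247-2898306, plus strand) was well above background on any array, and their scaled intensities were 1.91 to 3.25.

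CSF2, which encodes GM-CSF, was measured by 2 probes that gave the same picture. At probe 19962 (chr11:20346793-20346852, plus strand) the scaled intensity was 6300, 10576 and 10749 in RasV12 cells alone and 6440, 2792 and 3403 in mixed culture. At probe 50036, shown above, it was 1340, 2515 and 2474 alone and 1519, 622 and 762 in mixed culture. At both probes mixed replicates 2 and 3 lay below every alone sample, whereas mixed replicate 1 lay slightly above alone replicate 1, so the groups overlapped. The log2 difference was -1.18 at either probe (SE 0.35 and 0.39), with adjusted p of 0.0763 and 0.0958 (limma), short of the threshold.

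The CSF2 difference turned on replicate 1 of both groups. Between same-numbered samples the log2 differences at probe 19962 were 0.03 in replicate 1, -1.92 in replicate 2 and -1.66 in replicate 3. Without alone replicate 1 both probes were called lower, by -1.44 and -1.48 (adjusted p = 0.0406 and 0.0448, limma), in a fit that called 26.4% of all probes. Without mixed replicate 1 they were also called lower, by -1.54 and -1.56 (adjusted p = 0.0402 and 0.0488, limma), in a fit that called 7.46%. Leaving out any other array gave differences of -0.91 to -1.08 that were not called. The direction of CSF2 was the opposite of that of CCL20 in replicates 2 and 3.

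**Figure D3:**
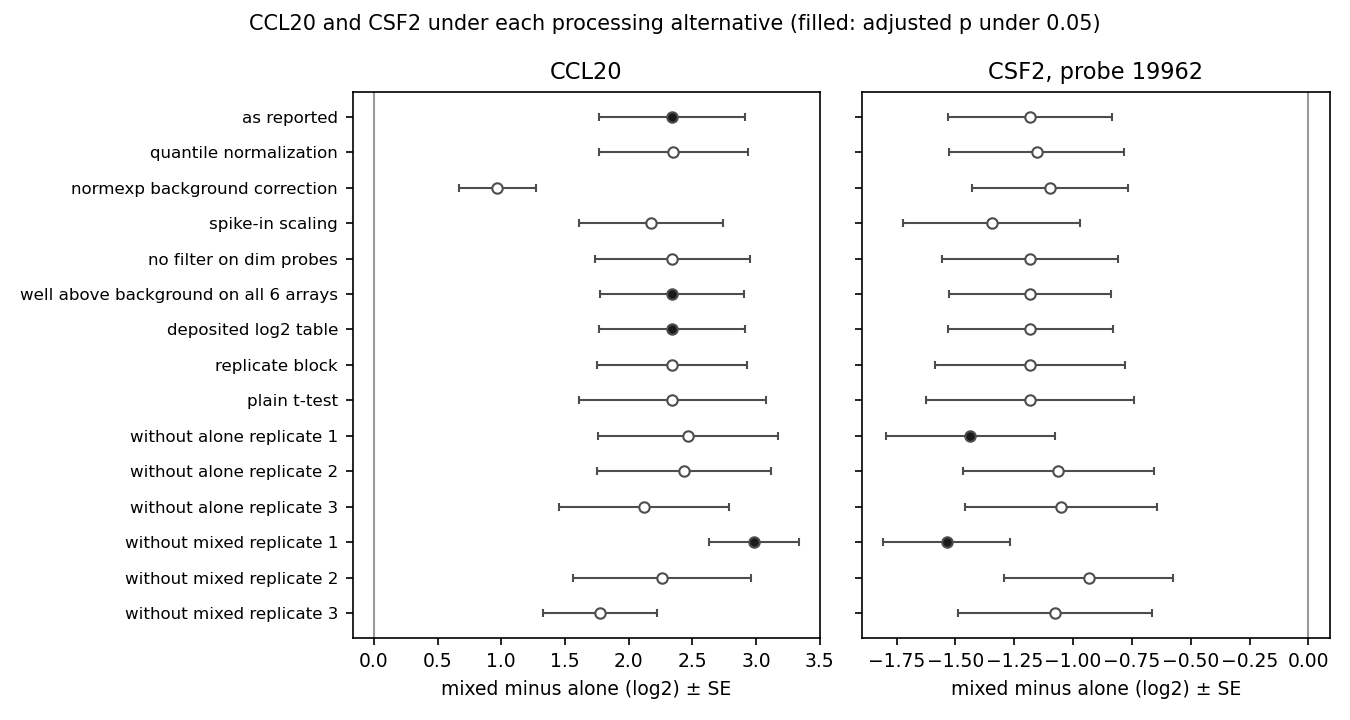
Log2 difference, mixed minus alone, with its standard error, for CCL20 and for CSF2 (probe 19962), as reported and under each of 14 processing alternatives, with filled markers where the adjusted p was under 0.05. CCL20 was above 0 throughout, from 0.97 to 2.98, and CSF2 below 0 throughout, from -0.93 to -1.54.

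IL23A encodes p19, the subunit that pairs with IL12B to form IL-23. Its probe, shown above, had scaled intensities of 95.6, 98.1 and 109 in RasV12 cells alone and of 63.9, 85.2 and 92.3 in mixed culture. Every mixed sample lay below every alone sample, but the log2 difference of -0.34 (SE 0.15, 95% interval -0.69 to 0.01) did not pass the threshold (adjusted p = 0.168, limma). Between same-numbered samples it was -0.58, -0.20 and -0.24, so the largest gap was in replicate 1, unlike at CCL20, CCL2 and CSF2.

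IL1A and IL1B encode IL-1α and IL-1β, which act on the same receptor, IL1R1. The IL1A probe (probe 19875, chr17:36970646-36970705, minus strand) was not well above background on any array, with scaled intensities of 2.45 to 7.12. None of the 3 IL1B probes was well above background either. They lay between 2.32 and 3.98, except for 13.9 at probe 1227 in alone replicate 1. These values say that IL1A and IL1B were not detectable at this sensitivity, not that they were absent.

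The receptors and partners of these cytokines were described through lists of chemokine ligands and receptors, the IL-1 family and its signalling, the IL-12/IL-23 and IL-17 axis, colony-stimulating factors, and other inflammatory cytokines. Of 146 listed symbols, 104 were on the array, 65 had a probe well above background on at least 1 array, 45 could be tested, and 1 was called higher and 1 lower, where 12.7% of all tested names were called. CXCR4, the receptor of CXCL12, was the one called lower. Its probe 15558 had scaled intensities of 140, 184 and 197 in RasV12 cells alone and 113, 115 and 111 in mixed culture, giving -0.60 on the log2 scale (SE 0.13, adjusted p = 0.0379, limma). Its probe 28093 gave 36.9, 48.8 and 51.4 alone and 29.9, 27.9 and 28.8 mixed, and -0.65 (SE 0.13, adjusted p = 0.0332, limma). At both probes the groups did not overlap, and the block for the replicate number kept the call (adjusted p = 0.0475 and 0.0490). The call was lost when any array other than alone replicate 1 was left out, with adjusted p of 0.0686 to 0.133.

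The other receptors and antagonists of the members gave no call. CXCR3, the receptor of CXCL10, differed by -0.10 (SE 0.11, adjusted p = 0.568, limma). CCR6, the receptor of CCL20, and IL1R1 were not well above background on any array, so the CCL20 receptor was not detectable in the cells in which CCL20 rose. IL1RN, the secreted antagonist of the IL-1 receptor, was well above background in alone replicates 2 and 3 and mixed replicate 2, at scaled intensities of 11.7 to 20.9 over all 6 arrays. ACKR3, a scavenging receptor that also binds CXCL12, and the ligands CCL8 and CSF1 were, at 1 probe each, well above background in mixed replicates 2 and 3 alone, the same samples as CCL2. Their scaled intensities there were 27.7 and 40.3 for ACKR3, 21.8 and 18.4 for CCL8, and 23.0 and 21.0 for CSF1. Over the array 68 probes, 0.156%, had this pattern. The opposite pattern, well above background in alone replicates 2 and 3 only, was more common, at 500 probes, 1.15%. It held, at 1 probe each, the listed genes CSF1R, IL17RD, LTB and TNFRSF1B.

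By list and without the replicate block, none of the 6 tested chemokine ligands was called (median log2 difference -0.20), nor of the 4 genes of the IL-1 family (-0.23), the 10 of the IL-12/IL-23 and IL-17 axis (0.22), the 3 colony-stimulating factors and receptors (0.27) or the 8 other inflammatory cytokines (0.11). Of the 5 chemokine receptors CXCR4 alone was called (median -0.10), and of the 9 genes of IL-1 processing and signalling TAB3, an adaptor of the kinase TAK1, alone (median -0.03). TAB3 was called higher at one probe, by 0.48 (SE 0.11, adjusted p = 0.0424, limma), and not at the other, by 0.14 (SE 0.09, adjusted p = 0.367). With the replicate block the TAB3 call was lost (adjusted p = 0.0609). The largest differences in the lists with no call were -0.57 for CCL27 (adjusted p = 0.0512, its other probe 0.07) and -0.38 for CX3CL1 (adjusted p = 0.175) among the ligands, and -0.46 for IL18BP (adjusted p = 0.367) and -0.45 for IL37 (adjusted p = 0.167) in the IL-1 family. They were 0.78 for IL17RB (adjusted p = 0.101) and 0.49 for NFKBIZ (adjusted p = 0.262) in the IL-17 axis, 0.30 for IL34 (adjusted p = 0.111) and 0.27 for KITLG (adjusted p = 0.0599) among colony-stimulating factors, and 0.69 for TNFSF10 (adjusted p = 0.0590) and -0.44 for TGFB1 (adjusted p = 0.10) among the other cytokines. With the replicate block, CCL27 (adjusted p = 0.0451), IL37 (0.0460), IL17RB (0.0315), TGFB1 (0.0424) and TNFSF10 (0.0344) were called in these directions, as was MYD88 of IL-1 signalling (0.40, adjusted p = 0.0491). Without the block, at an unadjusted p under 0.05, these lists held 1 ligand, 0 genes of the IL-1 family, 4 of the IL-17 axis, 3 colony-stimulating factors and receptors and 3 other cytokines. TNF was measured at 1 of its probes, with a difference of 0.11 (adjusted p = 0.75), and IL6 was not well above background on any array.

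**Figure D4:**
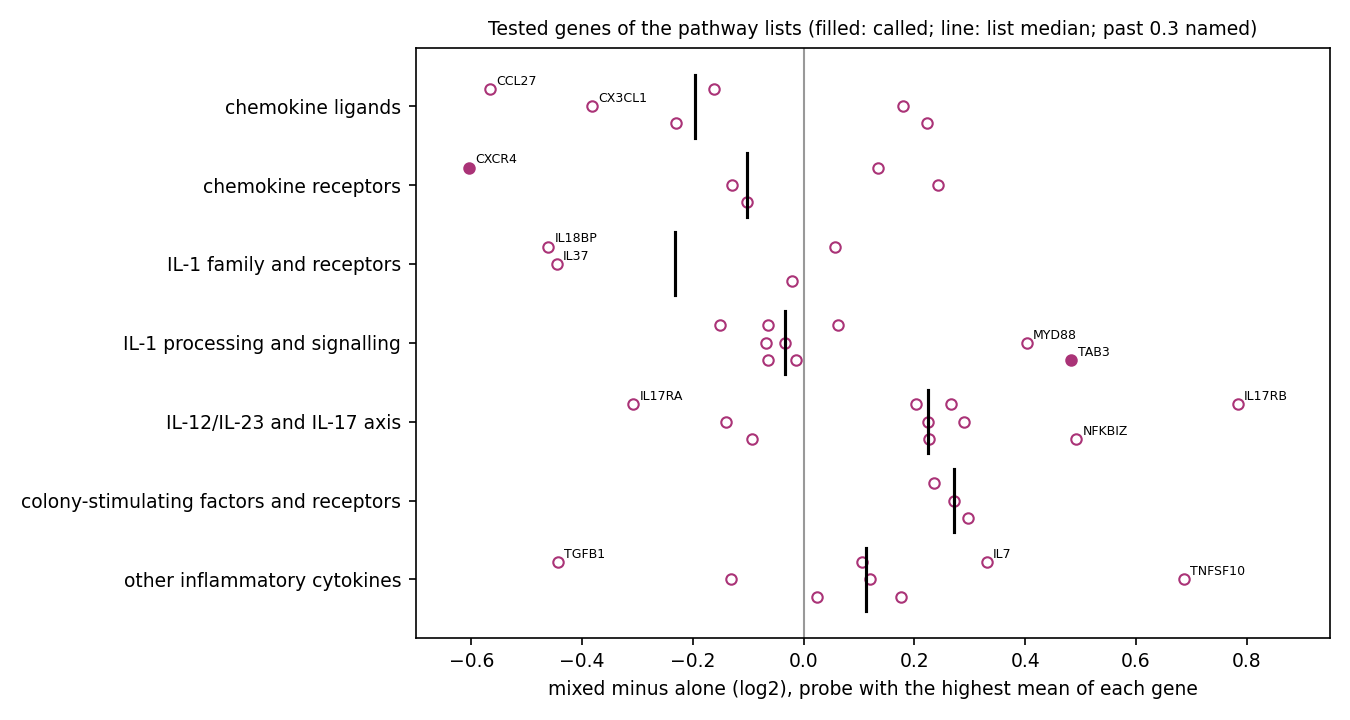
Log2 difference, mixed minus alone, of the tested genes of each list of cytokines, receptors and signalling genes, at the probe with the highest mean of each gene. Vertical lines are list medians, filled points passed the threshold, and genes past 0.3 in size are named. CXCR4 lies at -0.60 and TAB3 at 0.48, and no other point is filled.

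The labelled cell type and cells of other kinds were checked with marker genes. Normal MDCK cells, the other cells of the mixed cultures, are the line from which the RasV12 cells were made. The cell type lists therefore cannot tell normal MDCK cells from RasV12 cells, and carry-over of normal cells through the sort was not tested. All 8 epithelial markers on the array could be tested, and 2 were called higher in mixed culture, CLDN3 by 0.76 (adjusted p = 0.0143) and OCLN by 0.41 at 1 of its 2 probes (adjusted p = 0.0247), where 12.7% of all tested names were called in either direction. At an unadjusted p under 0.05 there were 5 epithelial genes, among them CDH1 (E-cadherin), whose 3 probes gave log2 differences of -0.36, -0.37 and -0.16 (adjusted p = 0.110, 0.0648 and 0.510, limma). With the replicate block CLDN4 was also called higher (0.72, adjusted p = 0.0315, limma). Of 18 leukocyte markers, 9 were not well above background on any array, among them PTPRC (CD45), CD3D, MS4A1, CD163, ITGAX and TYROBP, and none of the 7 tested was called by limma (0 had an unadjusted p under 0.05). Of the other marker lists, 5 fibroblast, 3 endothelial and 2 kidney tubule genes could be tested and none was called by limma, with 2, 0 and 0 at an unadjusted p under 0.05. The summed scaled intensity of the leukocyte markers measured on every array was 10092 to 11416 over the alone samples and 11295 to 12137 over the mixed samples. Both probes of CD74, the MHC class II invariant chain, made up most of it, and without them the sum was 1221 to 1330 alone and 1357 to 1422 mixed. All 7 tested leukocyte genes had positive differences, with a median of 0.10, and their part in the cytokine differences was not tested. Of 11 Ras-MAPK output genes tested, EGR1 was called higher (0.67 and 0.77) and CCND1 (-0.59), EPHA2 (-0.71) and FOSL1 (-0.52) lower. Over the whole test, 12.7% of names were called in either direction. The median log2 difference of the 11 genes was -0.49, and 4 of them had positive differences. At an unadjusted p under 0.05 (limma) there were 7 of the 11. With the replicate block the call of CCND1 was lost (adjusted p = 0.0633, limma). The block added IER3, lower by -0.49 and -0.46 at its probes (adjusted p = 0.0377 and 0.0409, limma). It also added SPRED1, higher by 0.39 at 1 of its probes (adjusted p = 0.0491, limma) and not called at another (0.28, adjusted p = 0.217). The part of these Ras-MAPK output genes in the cytokine differences was not tested.

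The genes whose levels followed CCL20 most closely were looked for among the 14623 probes that carried a gene symbol and were well above background on all 6 arrays. The measure was the root mean square difference between log2 values, each minus its own mean over the 6 arrays. The 5 closest genes were SLPI, a secreted protease inhibitor (0.46), TENM4, a teneurin (0.47), GCA, the calcium-binding protein grancalcin (0.48), and the MHC class II genes HLA-DRB1 (0.48) and DLA-DQB1 (0.50). For HLA-DRB1 the scaled intensity was 1962, 2959 and 2970 in RasV12 cells alone and 4654, 16322 and 16863 in mixed culture. GCA gave 19.4, 17.1 and 20.8 alone and 47.9, 105 and 110 mixed. As with CCL20, mixed replicate 1 of both genes lay between the alone samples and the other mixed samples. The 5 genes were chosen for likeness to CCL20 on these same arrays, so a shared pattern follows from the choice. SLPI was the exception among the 5 in that its groups overlapped, with mixed replicate 1 at 22.1 and alone replicate 2 at 24.7. CCL20 was set apart from all 5 in mixed replicate 3, where its value stood farther above its own mean than theirs.

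**Figure D5:**
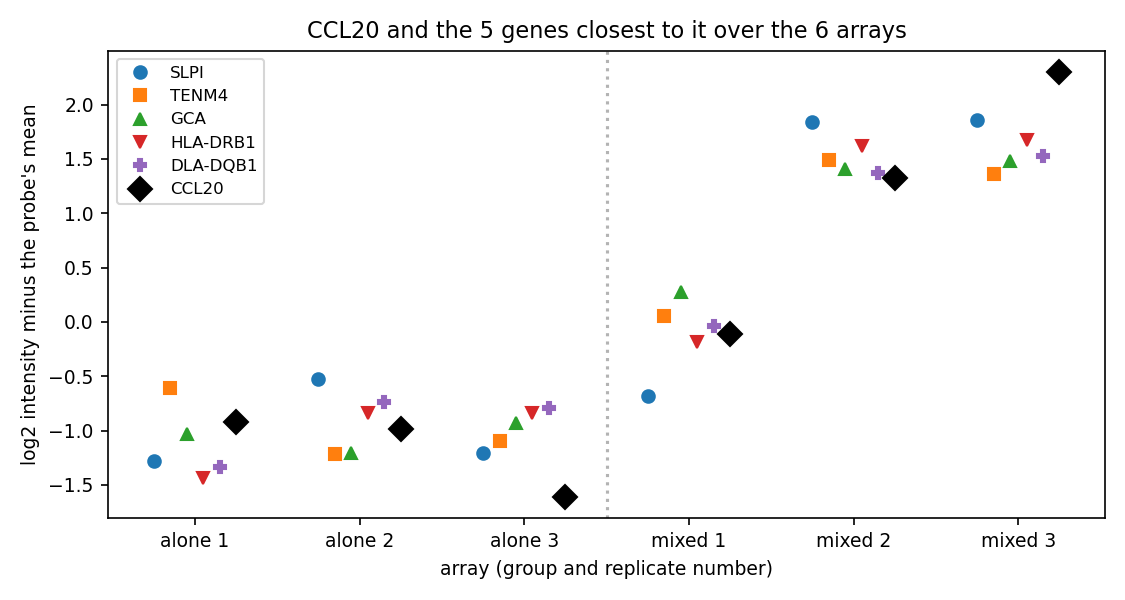
Log2 intensity minus the probe's own mean on each of the 6 arrays, for CCL20 (black diamonds) and the 5 genes closest to it by root mean square difference (0.46 to 0.50). All are low in the alone arrays, intermediate or low in mixed replicate 1 and high in mixed replicates 2 and 3. The 5 genes were chosen for this likeness.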

How the data were processed

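RNA of GFP-positive RasV12 cells from culture alone (3 samples) and mixed culture (3 samples) was measured on 6 Agilent arrays, 1 array per sample. The authors deposited, per the file headers, the intensity of each spot from Feature Extraction 10.10.1.1, background-corrected and detrended but not scaled between arrays, and a table of log2 values, which equals log2 processed signal minus each array's 75th percentile (within 0.01) for 26529 probes. The study names an unpaired t-test with corrected p-values for an array plot of related cells, which was run here as an alternative (the methods' t-test).

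Control spots and 6 to 12 outlier spots per array were left out, repeated spots were averaged per probe, and the log2 signal was scaled by subtracting the 75th percentile of the array (592 to 700 units). The share of probes well above background was 60.8% to 66.4%. The number of arrays limits the precision. Groups came from the titles. Probes well above background in every sample of either group or both were tested with lmFit and eBayes (limma 3.58.1, R 4.3.3), and the two-sided p-values were adjusted over all tested probes by Benjamini-Hochberg. The script was tested on simulated data. Tables and figures used Python 3.11.15, pandas 2.3.3, numpy 2.4.6 and matplotlib 3.10.9.

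A gene was called if any of its probes passed, and its value in a list is that of the probe with the highest mean. Named were all member probes, the called genes of each list, the 2 largest differences of lists with none, chosen receptors and the 5 genes closest to CCL20. Members and lists were chosen with earlier results of these data known. After removing group means, samples with the same replicate number correlated at 0.16 to 0.35 over 26529 probes. However, alone replicate 2 correlated more with mixed replicate 3 (0.24) than with mixed replicate 2 (0.16). The reported fit was therefore unpaired, and the replicate number was used as a block in an alternative only. The number is also the array's position on its slide. Alternatives were quantile normalization, normexp with an offset of 50, scaling to 8 spike-in controls, the deposited table, testing every probe, testing only those detected on all 6 arrays, the replicate block, the methods' t-test, and leaving out each array. Each slide held 1 group, so no slide block could be fitted. Promoters and proteins were not analysed here. Sequences and positions are those of the array's annotation.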

Additional observations from a re-analysis of the deposited data

How the results depend on the processing

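CCL20 was higher and CSF2, IL23A, CCL5 and CXCR4 were lower in mixed culture under all 14 alternatives, and calls moved. CCL20 kept its call with the filter for all 6 arrays, the deposited table and without mixed replicate 1. It was not called with quantile normalization (2.35, adjusted p = 0.0519), normexp (0.97, 0.0688), spike-in scaling (2.18, 0.0680), no filter (2.34, 0.136), the replicate block (2.34, 0.0679) or the methods' t-test (2.34, 0.149). Leaving out single arrays gave 1.78 to 2.98. The number of cytokine genes called, 1 as reported, was 0 with quantile normalization, normexp, spike-in scaling, no filter, the replicate block and the methods' t-test, and 0 to 3 when single arrays were left out, while 1 to 4 had an unadjusted p under 0.05 in every case. The 3 were CCL2 and CCL20, called higher, and CSF2, called lower, without mixed replicate 1. Without alone replicate 1, CSF2 was called lower, and CXCL10 was called lower at probe 3319 (-1.02, adjusted p = 0.0376, limma). That probe lies on the strand opposite to the other CXCL10 probes. CCL2 and CXCL10 entered those tests because the array left out was one on which each was dim, so these calls follow from the filter. For the receptor and pathway lists the count of 2 became 1 with quantile normalization, 6 with normexp, 7 with the replicate block, 0 with spike-in scaling, no filter and the methods' t-test, and 0 to 14 without single arrays. Over all tested probes the count of 2978 was 949 with spike-in scaling, 12 with no filter, 826 with the methods' t-test, and 7 to 7335 without single arrays (7 without alone replicate 3, 7335 without alone replicate 1). Spike-in scaling moved the split from 1459 higher and 1519 lower to 287 and 662, and the median difference of all probes from -0.0037 to -0.17. The replicate block ended the calls of CCL20, TAB3 and CCND1, kept those of CXCR4, and added CCL27, IL17RB, IL37, MYD88, TGFB1 and TNFSF10. Among the marker genes it also added CLDN4, IER3 and SPRED1. The causes of these shifts were not tested. The number of arrays and signals near background limit CCL20 alone, CCL2, CXCL8 and CXCL10, and probes not well above background give only upper limits.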
